A study of Mus musculus with 10 samples.

Results

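Glutathione is the main small thiol of the cell, and 10 genes that make it, supply its cysteine, reduce it and take it apart were followed in the retinal pigment epithelium (RPE). They were Gclc, Gclm, Gss, Gsr, Slc7a11, Slc3a2, Ggct, Oplah, Chac1 and Chac2. They were listed by symbol and found by their Ensembl identifiers among the 47729 genes of the count table, and all 10 were among the 16362 genes with enough counts to be tested. The animals were 5 wild-type CD1 mice, and RNA of their RPE was sequenced at P40, which is postnatal day 40, with 2 libraries per mouse. One eye had received AAV Best1 Nrf2 together with AAV Best1 GFP, and is called the Nrf2 eye. The contralateral eye had received AAV Best1 GFP alone, and is called the GFP control eye. AAV is an adeno-associated virus that carries a gene into cells, Best1 is a human promoter active in the RPE, and the Nrf2 vector carried the human coding sequence. No eye received a vector in place of Nrf2, so Nrf2 and the additional vector cannot be told apart.

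Nrf2 is a transcription factor that binds antioxidant response elements and turns on genes of thiol metabolism and detoxification. Glutathione is made in the cytosol in 2 steps. Glutamate-cysteine ligase, built from a catalytic subunit (Gclc) and a modifier subunit (Gclm), joins glutamate to cysteine and sets the pace, and glutathione synthetase (Gss) then adds glycine. Cysteine often limits the pathway, and it can enter as its disulfide cystine through a transporter made of a light chain (Slc7a11) and a heavy chain (Slc3a2). Glutathione reductase (Gsr) turns the oxidized form back with NADPH. Chac1 and Chac2 cleave glutathione inside the cell, Ggct releases pyroglutamate from other gamma-glutamyl compounds, and Oplah turns pyroglutamate back to glutamate. The RPE lies between the oxygen-rich choroid and the photoreceptors and depends on this system against oxidative stress.

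The start regions of the genes were examined for 2 short motifs, because some members changed greatly between the eyes and others changed little. The RefSeq promoter table (GRCm38.p6) held 7 of the 10 members and has no entry for Gclc, Gsr and Oplah. Each entry spans 250 bases before to 50 after the start. The antioxidant response element core, searched as TGACNNNGC on both strands, was in 12.4% of all 32851 promoters of the table, and the core recognised by the stress factor ATF4, searched as TGATGNAA on both strands, was in 3.97%. Of the 7 members, 2 held the first and another 2 held the second. The 4 promoters with a match are shown 5′ to 3′ on the strand of the gene, with matched letters in capitals. They lie at chr3:122245307-122245606 (plus strand, Gclm), chr6:54992818-54993117 (minus, Ggct), chr3:50443564-50443863 (minus, Slc7a11) and chr2:119350992-119351291 (plus, Chac1).
Gclm: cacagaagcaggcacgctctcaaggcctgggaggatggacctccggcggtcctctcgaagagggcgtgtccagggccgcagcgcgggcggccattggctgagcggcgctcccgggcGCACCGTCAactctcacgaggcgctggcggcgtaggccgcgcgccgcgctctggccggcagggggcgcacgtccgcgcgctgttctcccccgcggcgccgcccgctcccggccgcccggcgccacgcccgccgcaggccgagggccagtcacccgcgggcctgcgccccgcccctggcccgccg
Ggct: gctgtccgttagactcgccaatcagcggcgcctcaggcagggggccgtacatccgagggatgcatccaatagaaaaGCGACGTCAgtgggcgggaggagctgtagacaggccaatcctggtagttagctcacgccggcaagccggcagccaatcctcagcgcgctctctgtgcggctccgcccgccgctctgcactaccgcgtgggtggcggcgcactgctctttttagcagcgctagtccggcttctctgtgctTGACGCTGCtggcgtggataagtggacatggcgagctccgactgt
Slc7a11: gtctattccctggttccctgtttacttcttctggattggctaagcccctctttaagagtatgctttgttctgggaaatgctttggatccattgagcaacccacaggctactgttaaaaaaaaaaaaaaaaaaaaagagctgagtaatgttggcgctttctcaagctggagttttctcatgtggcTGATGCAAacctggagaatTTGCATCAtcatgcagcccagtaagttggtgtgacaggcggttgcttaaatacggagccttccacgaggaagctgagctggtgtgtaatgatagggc
Chac1: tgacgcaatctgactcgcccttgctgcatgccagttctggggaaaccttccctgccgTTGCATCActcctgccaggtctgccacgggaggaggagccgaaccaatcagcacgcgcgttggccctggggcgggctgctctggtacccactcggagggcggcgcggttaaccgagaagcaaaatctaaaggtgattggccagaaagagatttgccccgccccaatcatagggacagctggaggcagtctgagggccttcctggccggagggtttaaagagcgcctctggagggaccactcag
In Gclm the antioxidant core lay on the opposite strand, from -134 to -126 bases of the start. In Ggct 1 match lay on the opposite strand from -174 to -166 and another on the strand of the gene from 5 to 13 bases past the start. Slc7a11 held 2 ATF4 cores facing each other, from -66 to -59 and from -47 to -40, and Chac1 held 1 on the opposite strand from -193 to -186. Gss, Slc3a2 and Chac2 held neither motif in this window. A match describes letters only, and elements outside the window were not searched.

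Library totals ran from 12298404 to 27310638 counts, so that 3 counts, the limit that a count of 0 allows, correspond to between 0.110 and 0.244 CPM, the count divided by the library total and scaled to 1e6. Such limits and intervals take in counting error alone, because the RNA was amplified before sequencing. Each of the 10 genes had between 25 and 53508 counts in every library. Nfe2l2, the mouse gene of Nrf2, had 79.3 to 110 CPM in control eyes and 267 to 414 CPM in Nrf2 eyes, a value that can include reads of the human vector. The summed level of 12 RPE markers was 22682 to 43400 CPM in control eyes and 12354 to 30447 CPM in Nrf2 eyes. The sums overlapped, yet 5 of the 12 markers were lower by the test and 0 were higher, beside 2.73% and 3.6% of all tested genes. Among the lower ones were Rgr and Lrat of the visual cycle (log2 changes of -2.87 and -2.26) and the transcription factor Otx2 (-0.63). Of the defining RPE markers, mouse Best1 was low in both groups, at a mean of 0.766 and 1.14 CPM. Rod RNA varied most: 10 rod markers summed to 36.0 to 18562 CPM in control and 60.3 to 7136 CPM in Nrf2 eyes, with the highest value of each group in mouse 2. The 6 Mueller glia and astrocyte markers summed to 2115 to 4213 CPM in control and 1086 to 1822 CPM in Nrf2 eyes without overlap, where the 1 member called was Rlbp1, which the RPE list also holds (-1.93). The 8 muscle markers summed to 54.1 to 106 CPM in control and 5.46 to 647 CPM in Nrf2 eyes. Macrophage and microglia markers (15 genes) summed to 309 to 391 CPM in control and 602 to 2352 CPM in Nrf2 eyes, with none at 0 in any library. Of the 15, 12 passed the test upward, beside 3.6% of all tested genes, and the list median was 4.20 on the log2 scale. Csf1r and Itgam held most of the control sum, at means of 196 and 93.8 CPM, and did not pass (-0.57 and 0.34). Adgre1 and Aif1, at means of 0.989 and 0.948 CPM in control eyes, met the low-count filter through their Nrf2 eyes. These are bulk samples, in which a change in the share of a cell type and a change of RNA per cell cannot be told apart.

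Of the 10 genes, 5 were higher and 1 was lower in Nrf2 eyes at an adjusted p-value under 0.05 (edgeR, quasi-likelihood test with the mouse as a block). Over all tested genes 3.6% were higher, 2.73% were lower and 6.33% differed in either direction by the same rule. The genes that rose were Gclc, Gclm, Gss, Slc7a11 and Gsr, and Chac2 fell. The median log2 fold change was 1.07 for the 10 genes and -0.01 for all tested genes. Together the 10 genes made up 890 ± 101 CPM of a control eye and 4381 ± 313 CPM of an Nrf2 eye (SD over 5 eyes), and Gclc alone held 10.3% ± 3.06 of that sum in control eyes and 45.1% ± 1.79 in Nrf2 eyes. In 5 genes every Nrf2 eye lay above every control eye, and in Chac2 every Nrf2 eye lay below, whereas 3.87% and 2.41% of all tested genes showed such a separation.

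**Figure D1:**
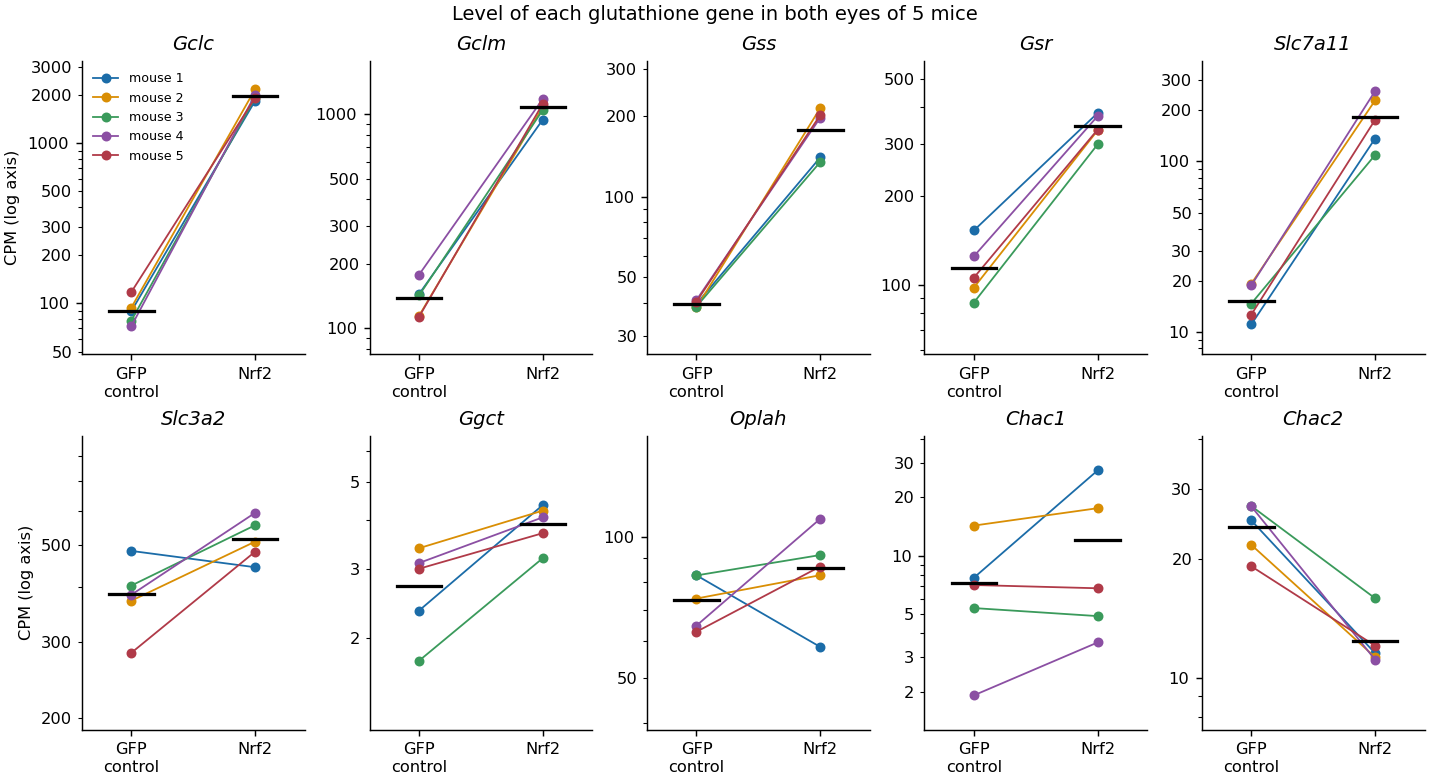
Level of each of the 10 genes in CPM, on a log axis that differs between panels, in the GFP control eye and the Nrf2 eye of 5 mice, with a line joining the eyes of a mouse and a black bar at the mean of 5 eyes. Gclc, Gclm, Gss, Gsr and Slc7a11 separate completely between the eyes, Chac2 separates downward, and Slc3a2, Ggct, Oplah and Chac1 overlap.

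Gclc had the largest change of the 10 genes. It (ENSMUSG00000032350, chromosome 9, 77754535 to 77794485, plus strand, mm10) encodes the catalytic subunit of the first enzyme and was at 89.3, 94.0, 77.9, 71.9 and 118 CPM in the control eyes of mice 1 to 5. In their Nrf2 eyes it was at 1842, 2176, 1924, 2005 and 1922 CPM. No eye of one group came near the other, and the lowest control eye (mouse 4) and the highest (mouse 5) gave the largest and the smallest difference. This was a log2 change of 4.46 (SE of 0.14, adjusted p = 5.0e-05, edgeR), 22-fold, which ranked 57 among the 16362 tested genes.

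Gclm (ENSMUSG00000028124, chromosome 3, 122245557 to 122270732, plus strand), which encodes the modifier subunit that raises the affinity of the enzyme for glutamate, had a smaller change. It was at 145, 114, 142, 178 and 113 CPM in control eyes and at 942, 1079, 1046, 1177 and 1119 CPM in Nrf2 eyes. Gclm rose in 5 of 5 mice by 2.95 on the log2 scale (SE of 0.11, adjusted p = 0.00010, edgeR), 7.75-fold. Mouse 4 had the highest Gclm level and the lowest Gclc level among the control eyes, and mouse 5 the reverse. Gclm exons share 296 bases with Gm17494, a transcript on the opposite strand that was at 9.95 ± 1.71 CPM in control and 13.3 ± 2.27 CPM in Nrf2 eyes, and 244 bases with the pseudogene Gm6061, which had at most 94 counts.

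The balance of the 2 subunits was compared because they form 1 enzyme and because their genes changed by different amounts. Levels were divided by the length of the merged exons, 3766 bases for Gclc and 6291 bases for Gclm, before a ratio was taken. In control eyes the ratio of Gclc to Gclm per kb was 1.03, 1.37, 0.914, 0.675 and 1.73 in mice 1 to 5. It lay on both sides of equality, with Gclc the lower of the pair in mice 3 and 4. In Nrf2 eyes it was 3.26, 3.37, 3.07, 2.85 and 2.87. The groups did not overlap, and their means were 1.14 ± 0.414 and 3.08 ± 0.233 (SD over 5 eyes).

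Within mice the log2 ratio of Gclc to Gclm was higher in the Nrf2 eye by 1.66, 1.3, 1.75, 2.08 and 0.73, a mean of 1.5 (SE 0.23) or 2.83-fold. The exact paired permutation test over 5 mice gave p = 0.0625 (two-sided, 0.0625 after adjustment over the 5 ratios computed), which is the smallest p that 5 pairs allow. Without the replicate block, an exact permutation of the 10 libraries gave p = 0.00794, also the smallest it allows. That permutation treats the eyes of a mouse as independent. Mouse 5, whose control eye had the highest ratio, had the smallest difference, and mouse 4, with the lowest, had the largest. The length of the longest transcript in place of merged exons gave means of 1.12 and 3.01. The within-mouse change does not depend on the lengths.

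**Figure D2:**
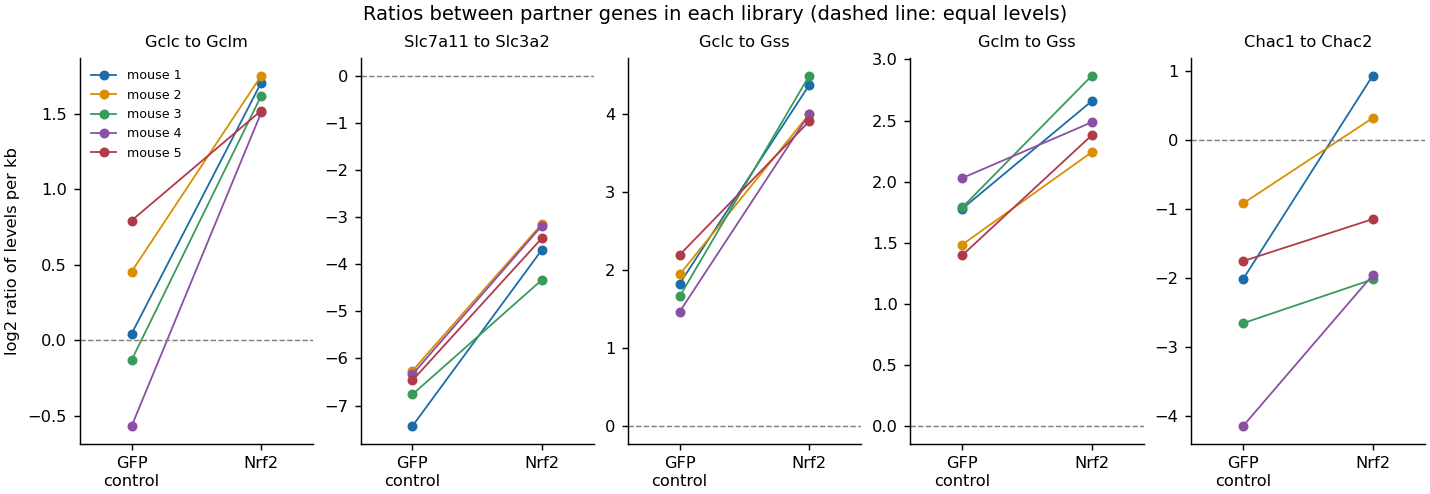
Log2 ratio of levels per kb of merged exons between 5 pairs of genes in the GFP control and Nrf2 eye of each mouse, with a dashed line where both genes are at the same level. The Gclc to Gclm ratio ran from 0.675 to 1.73 in control eyes and from 2.85 to 3.37 in Nrf2 eyes, and all 5 lines rise in every panel.

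Gss (ENSMUSG00000027610, chromosome 2, 155563181 to 155592810, minus strand), the synthetase of the closing step, rose less than both ligase subunits. Its control eyes were the most uniform of the 10 genes, at 39.6, 38.4, 38.8, 41.0 and 40.4 CPM, a coefficient of variation of 2.70%. All these values lay within the counting error of mouse 2 alone, a 95% Wilson interval of 35.5 to 41.6 CPM. Its Nrf2 eyes, at 140, 214, 135, 197 and 202 CPM, fell into a lower pair (mice 1 and 3) and a higher trio. All 5 mice had the rise, of 2.12 on the log2 scale (SE 0.12, adjusted p = 0.00025, edgeR) or 4.35-fold. Gss shares 395 exon bases with Acss2 on the opposite strand, which rose by 1.1 on the log2 scale from 29.2 ± 4.80 CPM. It also shares 385 with the antisense transcript Gssos2, at 0 to 4 counts in control and 14 to 28 counts in Nrf2 eyes. The strand setting of the counting is not given in the sources used here, so reads of the opposite strands may be mixed.

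Both ligase subunits moved further than the synthetase in every mouse. Per kb, Gclc stood to Gss at 3.57 ± 0.689 in control eyes and at 18 ± 3.33 in Nrf2 eyes, a mean within-mouse change of 2.33 on the log2 scale (1.71 to 2.83). Gclm stood to Gss at 3.28 ± 0.580 and 5.83 ± 1.01, a change of 0.83 (0.46 to 1.08). Both were higher in 5 of 5 mice, with p = 0.0625 in the exact paired permutation test, the smallest possible, and 0.0625 adjusted over the 5 ratios. The level of these ratios depends on the Gss gene model: with the longest transcripts, Gclc to Gss averaged 2.16 and 10.9, and Gclm to Gss averaged 2.03 and 3.62.

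Cystine uptake was divided between a light chain that rose and a heavy chain whose change did not pass the test. Slc7a11 (ENSMUSG00000027737, chromosome 3, 49892526 to 50443614, minus strand), the light chain that carries cystine in exchange for glutamate, was at 11.1, 19.2, 14.7, 18.8 and 12.6 CPM in control eyes. The Nrf2 eyes had 136, 228, 109, 258 and 175 CPM. The eyes did not overlap, and mouse 3 had the lowest Nrf2 eye and the smallest difference, 2.90 against 3.55 to 3.71 on the log2 scale in the others. Slc7a11 rose by 3.52 on the log2 scale (SE of 0.15, adjusted p = 7.0e-05, edgeR), 11.5-fold. The coefficient of variation among Nrf2 eyes, 34.2%, was the highest of the 5 genes that rose. The macrophage and microglia marker sum, which also rose in Nrf2 eyes, was 1215, 602, 862, 1361 and 2352 CPM in mice 1 to 5; its part in the Slc7a11 value was not tested.

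A short annotated transcript inside an intron of Slc7a11 was counted apart from it. Gm37498 (chromosome 3, 50400282 to 50404283, on the strand of Slc7a11, sharing no exon base with it) had 0, 0, 0, 0 and 2 counts in control eyes and 35, 59, 28, 43 and 48 counts in Nrf2 eyes. Unspliced reads of Slc7a11 and reads of a separate transcript cannot be told apart in these counts.

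Slc3a2 (ENSMUSG00000010095, chromosome 19, 8706882 to 8723369, minus strand) encodes the heavy chain that takes several amino acid transporters to the membrane. It had the highest level per length of the 10 genes in control eyes, and was at 485, 373, 404, 384 and 283 CPM there and at 445, 509, 555, 593 and 483 CPM in Nrf2 eyes. The groups overlapped, and mouse 1 was lower in its Nrf2 eye. The log2 fold change of 0.42 (SE 0.12) had an adjusted p of 0.120 in edgeR. It was 0.0359 with DESeq2 and 0.0408 without mouse 1, where the log2 fold change was 0.58.

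The ratio of light to heavy chain was higher in every Nrf2 eye than in its partner. Per kb it averaged 0.0103 ± 0.00293 over the 5 control eyes and 0.0886 ± 0.0261 over the 5 Nrf2 eyes (SD). The within-mouse log2 change was 3.09 (2.43 to 3.74), and the exact paired permutation test gave p = 0.0625, the smallest possible. The heavy chain transcript remained the more abundant in all 10 libraries.

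Slc3a2 also serves other light chains, which were compared as a list of 6 with Slc7a11 among them. Slc7a11 made up 0.627% ± 0.207 of the summed light chain level per kb in control eyes and 8.89% ± 3.27 in Nrf2 eyes. Slc7a10, a carrier of small neutral amino acids, was the most abundant light chain in control eyes, with 55.1% ± 5.69, and had 37.4% ± 14.4 in Nrf2 eyes. It fell by 0.92 on the log2 scale (SE 0.26) with an adjusted p of 0.0499 in edgeR, and passed in 4 of 11 other fits. Slc7a7, a carrier of cationic and neutral amino acids, rose by 1.41 (SE 0.26, adjusted p = 0.0438) from 1.38 ± 0.625 CPM, and it also passed in 4 of 11. Slc7a5 and Slc7a8, both at over 100 CPM, had log2 fold changes of -0.18 and 0.16 that did not pass.

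**Figure D3:**
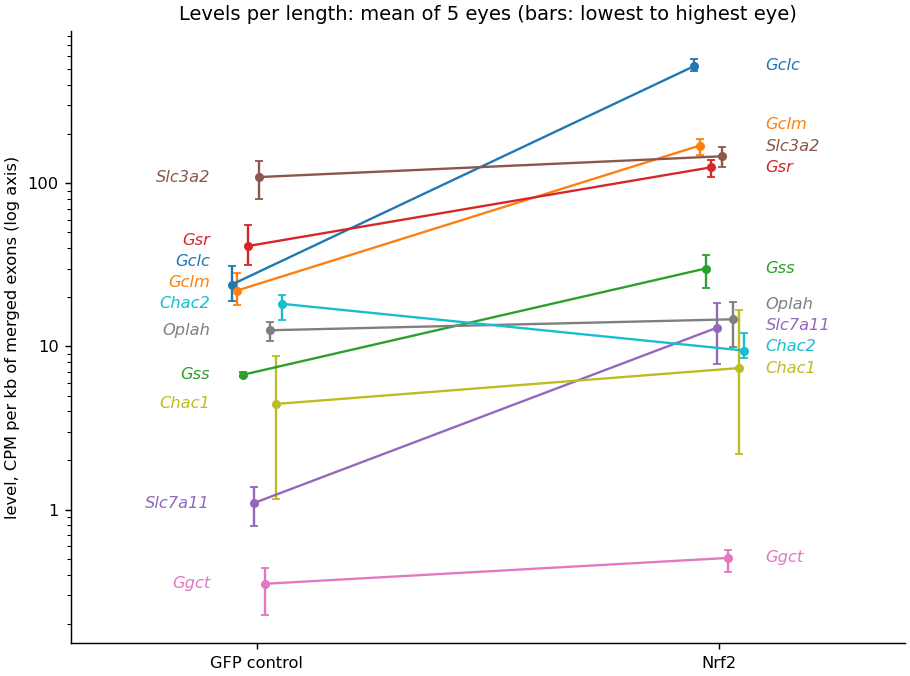
Level of each gene in CPM per kb of merged exons, on a log axis, as the mean of 5 GFP control eyes and of 5 Nrf2 eyes, with bars from the lowest to the highest eye. Gclc moved from 23.9 to 524 and became the highest of the 10 genes, whereas Chac2 moved from 18.3 to 9.43.

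Gsr (ENSMUSG00000031584, chromosome 8, 33652523 to 33698163, plus strand), the reductase that recycles glutathione, rose the least of the 5 higher genes and the most evenly. It was at 153, 97.8, 87.1, 125 and 106 CPM in control eyes and at 383, 334, 300, 374 and 336 CPM in Nrf2 eyes. Mice 1 and 4 had the highest level in both groups and mouse 3 the lowest in both. The rise was 1.61 on the log2 scale (SE 0.08, adjusted p = 0.00032, edgeR) or 3.05-fold, with within-mouse differences from 1.4 to 1.8.

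Of Chac1, Chac2, Ggct and Oplah, which act in glutathione breakdown and the return of its parts, Chac2 passed the test, downward, and the other 3 did not pass. Chac2 (ENSMUSG00000020309, chromosome 11, 30976707 to 30986350, minus strand), a cyclotransferase that degrades glutathione at a low basal rate, was the one gene of the 10 that fell. Mice 1 to 5 had 25.0, 21.7, 27.2, 27.1 and 19.2 CPM in control eyes and 11.6, 11.3, 15.9, 11.1 and 12.1 CPM in Nrf2 eyes. Nrf2 eyes were lower in 5 of 5 mice, with a log2 change of -0.97 (SE of 0.11, adjusted p = 0.00733, edgeR) or 1.95-fold, where 10.9% of all tested genes were lower in all 5 mice. The call held in each of the 11 other fits, with adjusted p-values up to 0.0345. Asb3, on the opposite strand around Chac2 with no shared exon base, had a log2 fold change of -0.15. Of the 12 RPE markers, 5 were also lower in Nrf2 eyes, and the Nrf2 eye of mouse 3, with the highest Chac2 level of its group, had the highest RPE marker sum of its group, 30447 CPM; the part of these markers in the Chac2 value was not tested.

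Chac1 (ENSMUSG00000027313, chromosome 2, 119351229 to 119354381, plus strand), the related enzyme that is induced by endoplasmic reticulum stress through ATF4, varied widely between mice in both groups. It was at 7.70, 14.3, 5.38, 1.91 and 7.07 CPM in control eyes and at 27.5, 17.6, 4.89, 3.58 and 6.80 CPM in Nrf2 eyes. It was higher in the Nrf2 eye of 3 mice and lower in 2, and the log2 fold change of 0.54 (SE 0.38) did not pass (adjusted p = 0.468, edgeR). Mouse 1 carried much of it: without that mouse the value was 0.23. The lowest library had 32 counts, a 95% Wilson interval of 1.35 to 2.70 CPM. The ratio of Chac1 to Chac2 per kb was 0.258 ± 0.177 in control and 0.823 ± 0.733 in Nrf2 eyes, higher in 5 of 5 mice by 0.61 to 2.95 on the log2 scale, with overlapping groups (exact paired permutation test, p = 0.0625, the smallest possible).

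Ggct (ENSMUSG00000002797, chromosome 6, 54982580 to 54992950, minus strand), the gamma-glutamyl cyclotransferase, had the lowest level of the 10 genes. It was at 2.35, 3.39, 1.75, 3.11 and 3.00 CPM in control eyes and at 4.37, 4.23, 3.20, 4.07 and 3.70 CPM in Nrf2 eyes. It was higher in the Nrf2 eye of 5 of 5 mice, as were 9.23% of all tested genes, and the log2 fold change of 0.54 (SE 0.16) did not pass (adjusted p = 0.292, edgeR). The smallest library value rested on 25 counts, an interval of 1.18 to 2.58 CPM.

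Oplah (ENSMUSG00000022562, chromosome 15, 76296601 to 76328015, minus strand), which returns pyroglutamate to glutamate, was at 82.8, 73.9, 82.7, 64.7 and 62.8 CPM in control eyes. In Nrf2 eyes it was at 58.2, 82.8, 91.5, 109 and 86.4 CPM. The groups overlapped, and mouse 1 was lower in its Nrf2 eye by 0.43 on the log2 scale. The log2 fold change of 0.19 (SE 0.18) did not pass (adjusted p = 0.617, edgeR), and it was 0.02 with the rod markers as a covariate and 0.38 without mouse 1. Oplah shares 385 exon bases with Exosc4, at 36.2 ± 3.44 CPM in control eyes, on the opposite strand.

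**Figure D4:**
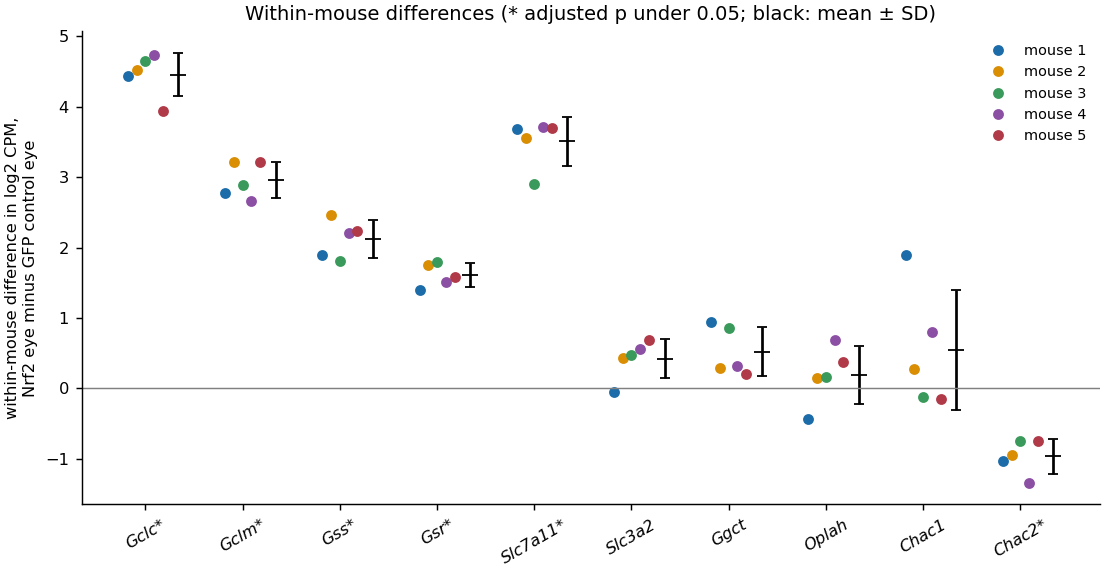
Difference in log2 CPM between the Nrf2 eye and the GFP control eye of each of 5 mice, by gene, with the mean ± SD in black and an asterisk where the adjusted p-value was under 0.05. The points of Gclc lie between 3.94 and 4.73, those of Gsr between 1.4 and 1.8 and those of Chac2 between -1.34 and -0.75, whereas Chac1 runs from -0.14 to 1.90.

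The order of levels per kb of merged exons differed between the eyes. In control eyes it ran Slc3a2 (109 ± 20.5 CPM per kb), Gsr (41.3 ± 9.41), Gclc (23.9 ± 4.69), Gclm (22 ± 4.22), Chac2 (18.3 ± 2.68), Oplah (12.6 ± 1.64), Gss (6.70 ± 0.181), Chac1 (4.44 ± 2.76), Slc7a11 (1.1 ± 0.260) and Ggct (0.351 ± 0.0858). The eyes overlapped between Gclc and Gclm, Gclm and Chac2, Gss and Chac1, and Chac1 and Slc7a11. In Nrf2 eyes it ran Gclc (524 ± 33.7), Gclm (170 ± 13.9), Slc3a2 (147 ± 16.6), Gsr (125 ± 12.2), Gss (30.04 ± 6.31), Oplah (14.7 ± 3.15), Slc7a11 (13 ± 4.45), Chac2 (9.43 ± 1.52), Chac1 (7.37 ± 6.26) and Ggct (0.505 ± 0.0609). There each neighbour overlapped the next from Gclm through Gsr and from Oplah through Chac1, and Gclc stood apart from every other gene. The spread between eyes was smaller in the Nrf2 group for 5 of the 10 genes and larger for the other 5. Among the genes that rose it was smaller for Gclc (coefficient of variation 6.44% against 19.6%), Gclm (8.17% against 19.2%) and Gsr (9.70% against 22.8%), and larger for Gss (21% against 2.70%) and Slc7a11 (34.2% against 23.7%). These differences in spread were not tested, and the control spread of Gss was within counting error.

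Genes that feed the pathway were then counted from lists of neighbouring steps, to be read against the 3.6% of all tested genes that were higher and the 2.73% that were lower. Of 17 genes of cysteine and glycine supply, 16 were tested, of which 1 was higher and 3 were lower, and the list had a median log2 change of -0.04. Slc1a4, a carrier of alanine, serine and cysteine, rose by 4.54 (SE 0.25, adjusted p = 0.00015, edgeR), from 9.44 ± 1.85 to 225 ± 55.5 CPM, a fold change as large as that of Gclc. Cth, which makes cysteine from cystathionine, fell by 0.91 (SE 0.12, adjusted p = 0.0127) and lost its call in 4 of 11 other fits. Phgdh, the first enzyme of serine synthesis, went from 326 ± 74.6 to 172 ± 46.3 CPM, a log2 change of -0.95 (SE of 0.10, adjusted p = 0.00392). The remaining lower gene was Slc7a10.

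Of 12 genes of glutamate and glutamine supply 1 passed, which is near the 6.33% of all tested genes. Slc1a1, a carrier of glutamate and cysteine, went from 1016 ± 241 to 534 ± 165 CPM, a log2 change of -0.96 (SE of 0.13, adjusted p = 0.00881, edgeR), and it did not pass without the replicate block (adjusted p = 0.0740). The glutamine synthetase gene Glul had a log2 fold change of 0.14 that did not pass. The median of the list was 0.02.

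Outside the cell, gamma-glutamyl transferases and dipeptidases return the amino acids of glutathione. Of 11 tested genes of this list, Ggt5 rose by 2.77 (SE 0.41, adjusted p = 0.0065, edgeR) from 2.45 ± 1.45 CPM, and the dipeptidase gene Dpep2 went from 10.9 ± 2.68 to 3.04 ± 1.83 CPM, a log2 change of -1.99 (SE of 0.35, adjusted p = 0.0137). Dpep2 lost its call with the rod markers as a covariate and without mouse 4. Ggt1, a more abundant transferase, had 71.0 ± 14.5 CPM in control and 103 ± 17.7 CPM in Nrf2 eyes and did not pass (adjusted p = 0.113).

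Glutathione reductase needs NADPH, and of 13 genes of NADPH supply and glutathione-linked reduction 4 were higher and 0 were lower, beside 3.6% and 2.73% of all tested genes (median 0.26). These were Txnrd1, thioredoxin reductase, with a log2 fold change of 4.10, Pgd and G6pdx, the dehydrogenases of the pentose phosphate pathway, with 2.25 and 1.26, and Taldo1, transaldolase, with 1.02 (adjusted p-values up to 0.00661, edgeR). The glutaredoxin genes Glrx, Glrx2, Glrx3 and Glrx5 did not pass, and Glrx was nearest at 0.52 (adjusted p = 0.0551). Me1 and Idh1, which make NADPH in the cytosol, both had log2 fold changes of 0.26 that did not pass.

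Among 9 genes of glutathione export and mitochondrial import, 3 were higher and 0 lower (median 0.12), and all 3 were export pumps. Abcc4 rose by 2.79 (SE 0.09), Abcc1 by 1.32 (SE 0.17), from 97.9 ± 31.3 to 238 ± 28.1 CPM, and Abcc3 from 0.329 ± 0.239 to 6.77 ± 3.52 CPM (adjusted p-values up to 0.00678, edgeR). Abcc3 lay between 0 and 0.663 CPM in control eyes and met the low-count filter through its Nrf2 eyes. Slc25a39 and Slc25a40, linked to glutathione import into mitochondria, had log2 fold changes of 0.12 and -0.36 that did not pass. On the branch that consumes cysteine, 9 genes were tested. Csad, an enzyme of taurine synthesis, fell by 0.76 (SE 0.15, adjusted p = 0.0175) and lost its call in 5 of 11 other fits. Sqor, which oxidizes sulfide, rose by 1.27 (SE 0.15, adjusted p = 0.00317).

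**Figure D5:**
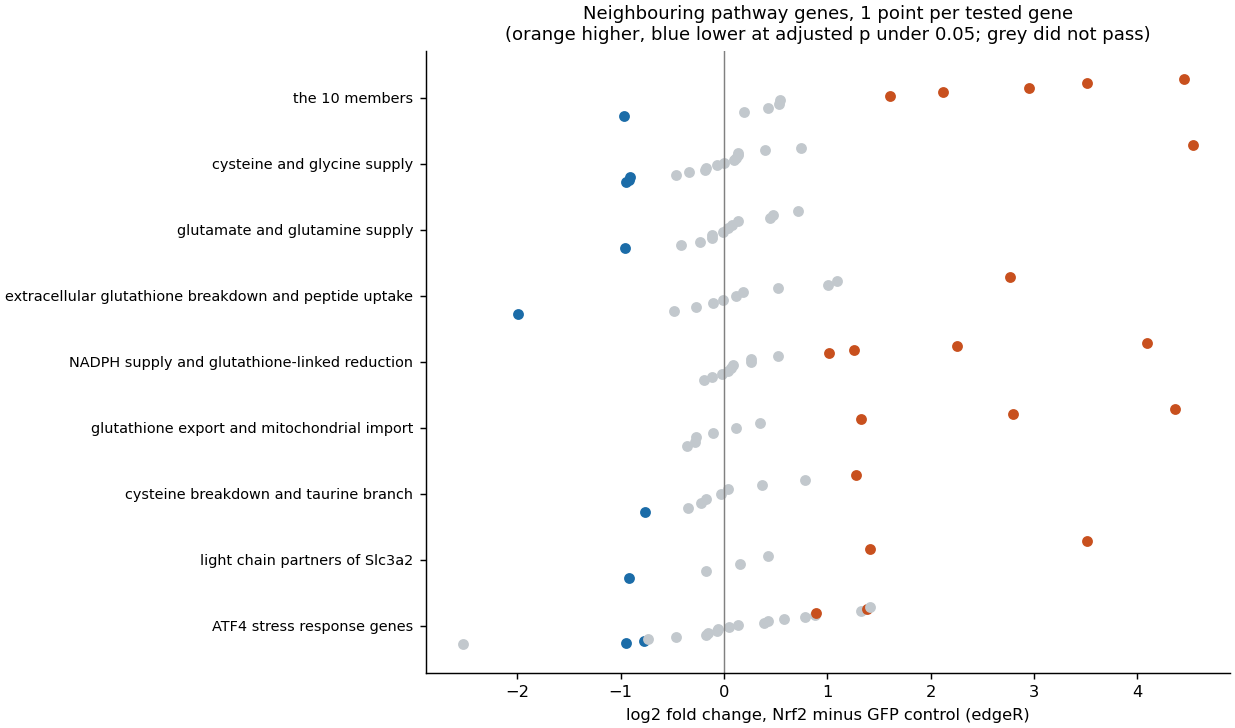
Log2 fold change (edgeR, Nrf2 minus GFP control, 5 mice) of each tested gene of the 10 members and of 8 neighbouring gene lists, with orange for higher and blue for lower genes at an adjusted p-value under 0.05 and grey for the rest. The members hold 5 orange points and 1 blue point, and most points of the other lists are grey.

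Slc7a11, Slc3a2 and Chac1 are known targets of ATF4 as well, so 20 other ATF4 stress response genes were counted. Of these, 2 were higher and 2 were lower, and the list had a median log2 change of 0.09. Cebpb and Eif4ebp1 rose by 0.89 and 1.38 (adjusted p = 0.00226 and 0.00797, edgeR), Phgdh fell by 0.95, and Ddit4 fell by 0.78 (adjusted p = 0.0237) and lost its call in 6 of 11 other fits. Atf4 itself was at 67.8 ± 12.3 CPM in control and 70.2 ± 8.48 CPM in Nrf2 eyes, and the stress genes Ddit3, Trib3, Asns and Atf3 did not pass, with log2 fold changes of -0.07, 0.79, 0.88 and 1.33.

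To find the genes whose pattern lay nearest to that of the members, the 5 within-mouse differences were compared with those of 10222 other tested genes with a mean of at least 10 CPM. The measure was the root mean square distance on the log2 scale over the 5 mice. Nearest to Gclc were Txnrd1 (0.51), Bco1 (0.53) and Srxn1 (0.62), which encode thioredoxin reductase, a carotenoid-cleaving oxygenase and sulfiredoxin. Nearest to Gclm were Gsta1 (0.23), Abcc4 (0.26) and Tbcel (0.31), where Gsta1 is a glutathione transferase gene with close copies that could share reads. Nearest to Slc7a11 were Tmem158 (0.32), Panx1 (0.57) and Gsta2 (0.58), and nearest to Gsr were Nqo1 (0.21), Vps50 (0.23) and Esd (0.24). Nqo1 encodes a quinone reductase and Esd a hydrolase of a glutathione conjugate of formaldehyde. These genes were chosen for differences like those of the members, so their own tests are not given here. Txnrd1 and Abcc4 also belong to the lists above, and their tests are given there. Bco1 met the minimum of 10 CPM through its Nrf2 eyes, with means of 1.41 CPM in control and 24.6 CPM in Nrf2 eyes. So did Panx1, with means of 9.85 CPM in control and 118 CPM in Nrf2 eyes.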

How the data were processed

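RNA from the RPE of 5 CD1 mice, 10 libraries, was amplified with a low-input kit and sequenced in 2 runs, which the labels do not assign to libraries. The authors aligned reads to mm10 (Ensembl transcripts) with STAR and counted them with featureCounts, and in parallel estimated counts with Salmon (version 0.8.2 in the submitters' processing notes); which table was deposited, and its strand setting, are not given in the sources used here. The deposited values are raw counts per gene. Of 47729 identifiers, 99.1% matched GENCODE M21 (same build), which gave symbols, positions and merged exon lengths.

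The test across genes was that of edgeR 4.0.16, run in R 4.3.3 (filterByExpr, TMM, quasi-likelihood, mouse as block, Benjamini-Hochberg over 16362 genes, threshold 0.05). The blocks are eyes of 1 animal per the labels. Deviations correlated between the eyes of a mouse at r = 0.19 to 0.29 in mice 1, 3, 4 and 5 and at r = 0.71 in mouse 2. SEs are those of 5 within-mouse differences in log2 CPM (prior count 2). Ratios were tested with exact sign-flip permutations (scipy 1.17.1). On simulated counts for this paired comparison (16799 genes tested), edgeR recovered 83 of 100 genes changed by 1 and 96 of 100 changed by 2 on the log2 scale. The simulation gave every gene the same dispersion and held no differences in cell mix, so these shares are not the power in the data. Alternatives were DESeq2 1.42.0, RLE and upper quartile scaling, no low-count filter, no block, a rod covariate and leaving out each mouse. All 10 genes are described. Other genes named are the called genes of each list (at most the 4 largest changes), family genes that did not pass, Nfe2l2, the 3 nearest patterns and genes overlapping a member; further genes that did not pass (Glul, Me1, Idh1 and genes of the export and ATF4 lists) were chosen after their values were seen. Members and lists were chosen with earlier results of these data known.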

Additional observations from a re-analysis of the deposited data

Results flagged for a closer look

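Among 30 groups of 5 values (the log2 CPM of 10 genes and 5 log2 ratios, in each kind of eye), 1 value stood far from the others, where chance gives about 1.5. It was Chac2 in the Nrf2 eye of mouse 3, at 4.08 on the log2 CPM scale, while its 4 companions lay between 3.44 and 3.60. Without mouse 3 the log2 fold change of Chac2 was -0.96, against -0.97 with all mice.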

How the results depend on the processing

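Of the 10 genes, 6 passed with all mice and the block, and 6 or 7 in each of 11 other fits, the seventh being Slc3a2 with DESeq2 and without mouse 1. Every gene kept its direction in all of them. Without the replicate block the same 6 passed. The mean ratio changes are the same with and without pairing by construction, and unpaired 4 passed the exact permutation test with p = 0.00794: Gclc to Gclm (1.5), Slc7a11 to Slc3a2 (3.09), Gclc to Gss (2.33) and Gclm to Gss (0.83). Chac1 to Chac2 did not (exact permutation p = 0.127). Over all genes, 1036 passed with the block, 755 without it, 1808 with DESeq2, 505 with the rod covariate and 584 to 857 leaving out each mouse; the smallest was without mouse 2, with 613 without mouse 4 and 683 without mouse 5. Of the other genes in the lists, 20 passed, 32 with DESeq2 and 14 to 25 in the remaining fits; the cause was not tested. Ggct, at 25 to 104 counts, and Chac1, at 32 to 604 counts, rest on few counts in some libraries.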
